A study of Homo sapiens with 6 samples.

Results

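The genes of DNA damage signalling and homologous recombination were examined in RNA sequencing of H1299 cells in which CCNB1, the gene of cyclin B1, had been knocked down. The 41 genes are the rows of the count table that carry the symbol of a named checkpoint kinase, damage mediator, homologous recombination factor, Fanconi anaemia protein or end joining protein, out of 58336 rows. The rule names genes by symbol and uses no measured value, but the list was drawn up with earlier results of these data known. All 41 were present and all 41 were among the 17349 genes with enough counts to test. H1299 is an established human lung cancer line that lacks functional p53, and per the labels all cells were grown with 10% serum and stable transfectants were selected with 1 µg/ml puromycin. The 3 mock libraries are labelled PLVT7_MOCK with the genotype WT, and the 3 knockdown libraries are labelled PLVT7_CCNB1 with the genotype CCNB1 knockdown, made with a short hairpin RNA (shCCNB1). The sources used here do not give the number of hairpins or clones, nor the cultures behind each library, and p-values therefore cover only the variation seen among these 6 libraries, part of which may be technical.

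Library totals lay between 28122665 and 30332989 counts, and the smallest count of any of the 41 genes in a library was 104, that of FANCB in knockdown library 2. CCNB1 (ENSG00000134057) was at 323, 305 and 294 CPM (counts scaled to library size and composition) in mock libraries 1, 2 and 3 and at 19.9, 29.9 and 16.1 CPM in knockdown libraries 1, 2 and 3, which fits the labels of all 6. Values per library are given in this order throughout. The labels call the cells mesenchymal and lung adenocarcinoma, and in mock against knockdown libraries the mesenchymal marker VIM was at 3203 ± 71.5 against 2317 ± 881 CPM, the keratin KRT8 at 336 ± 24.6 against 727 ± 244 CPM and KRT18 at 305 ± 21.1 against 564 ± 170.4 CPM (SD, n = 3), whose part in the results below was not tested. The other mesenchymal markers did not share the direction of VIM beyond their spread. In mock against knockdown libraries CDH2 was at 48.9 ± 1.42 against 51.4 ± 3.66 CPM and FN1 at 61.3 ± 12.2 against 53.4 ± 21.5 CPM (SD, n = 3). Of the other epithelial markers, EPCAM and KRT19 did not exceed 14 and 19 counts in any library. The epithelial cadherin CDH1 and the lung lineage marker SFTPC did not exceed 2 counts in any library. The leukocyte genes PTPRC and CD3E had 0 counts in all 6 libraries. Knockdown library 2 stood apart from knockdown libraries 1 and 3 for most of the repair genes and for the genes of S phase. This was not confined to them. Over all genes, 2453 passed an adjusted p under 0.05 in edgeR without library 2, against 4 with all 6 libraries. Results are therefore given with and without it. Library 2 was singled out on the values of these same genes, so p-values without it are a description and no independent evidence of a change. CPM compares one gene between libraries, and FPKM, which also divides by gene length, is used where genes are compared with each other.

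When a double-strand break forms, the MRE11-RAD50-NBN complex holds the ends and activates the kinase ATM, while single-stranded DNA at stalled forks brings ATR with its partner ATRIP, and the effector kinases CHEK2 and CHEK1 then slow the cell cycle. MDC1, RNF8, RNF168 and TP53BP1 build up on the chromatin around the break, and the balance between TP53BP1 and BRCA1 sets whether ends are protected for joining or cut back for recombination. After resection, BRCA2, PALB2 and the recombinase paralogs prepare single-stranded DNA for strand exchange, and the Fanconi proteins couple recombination to the repair of crosslinked DNA. Many of these genes are transcribed most in S phase, when a sister chromatid is available as template, and cyclin B1 with CDK1 acts later, at the entry into mitosis that the checkpoint kinases restrain.

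No gene of the 41 passed the threshold of an adjusted p under 0.05 in edgeR's quasi-likelihood test of knockdown against mock over all 6 libraries, where 0.0231% of all genes tested passed. PARP1, MDC1 and TP53BP1 were the 3 genes at an unadjusted p under 0.05 on the lower side, where 6.88% of all genes lay, and CHEK2 was the 1 gene on the higher side, where 8.14% of all genes lay. DESeq2 called 2 of the 41, PARP1 and MDC1, both lower, against 2.39% of genes called lower. The same PARP1, MDC1 and TP53BP1 were the 3 genes whose knockdown libraries all lay below all mock libraries, against 8.84% of all genes, and 0 of the 41 had all knockdown libraries above mock, against 10.9%. With 25 genes at a positive and 16 at a negative log2 fold change, the median over the 41 was 0.060, beside 0.023 over all genes tested. In these bulk samples, a smaller share of cells that express a gene and less RNA of it per cell cannot be told apart.

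That median covers knockdown libraries that went opposite ways. Relative to the mock mean, the median log2 level of the 41 genes was 0.26, -0.34 and 0.11 in knockdown libraries 1, 2 and 3, and -0.045, 0.069 and -0.043 in mock libraries 1, 2 and 3. In knockdown library 1, 29 of the 41 genes lay above all 3 mock libraries, where 36.0% of all genes did, and 6 lay below all 3, where 32.2% did. In knockdown library 3, 20 lay above, where 35.2% of all genes did, and 9 below, where 32.2% did. Knockdown library 2 had the reverse arrangement, with 1 gene, LIG4, above all mock libraries, where 32.4% of all genes were, and 32 below, where 27.3% were. The median SD of log2 CPM within the knockdown group was 0.30 for the 41 genes and 0.24 for all genes, while within the mock group it was 0.14 and 0.17.

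**Figure D1:**
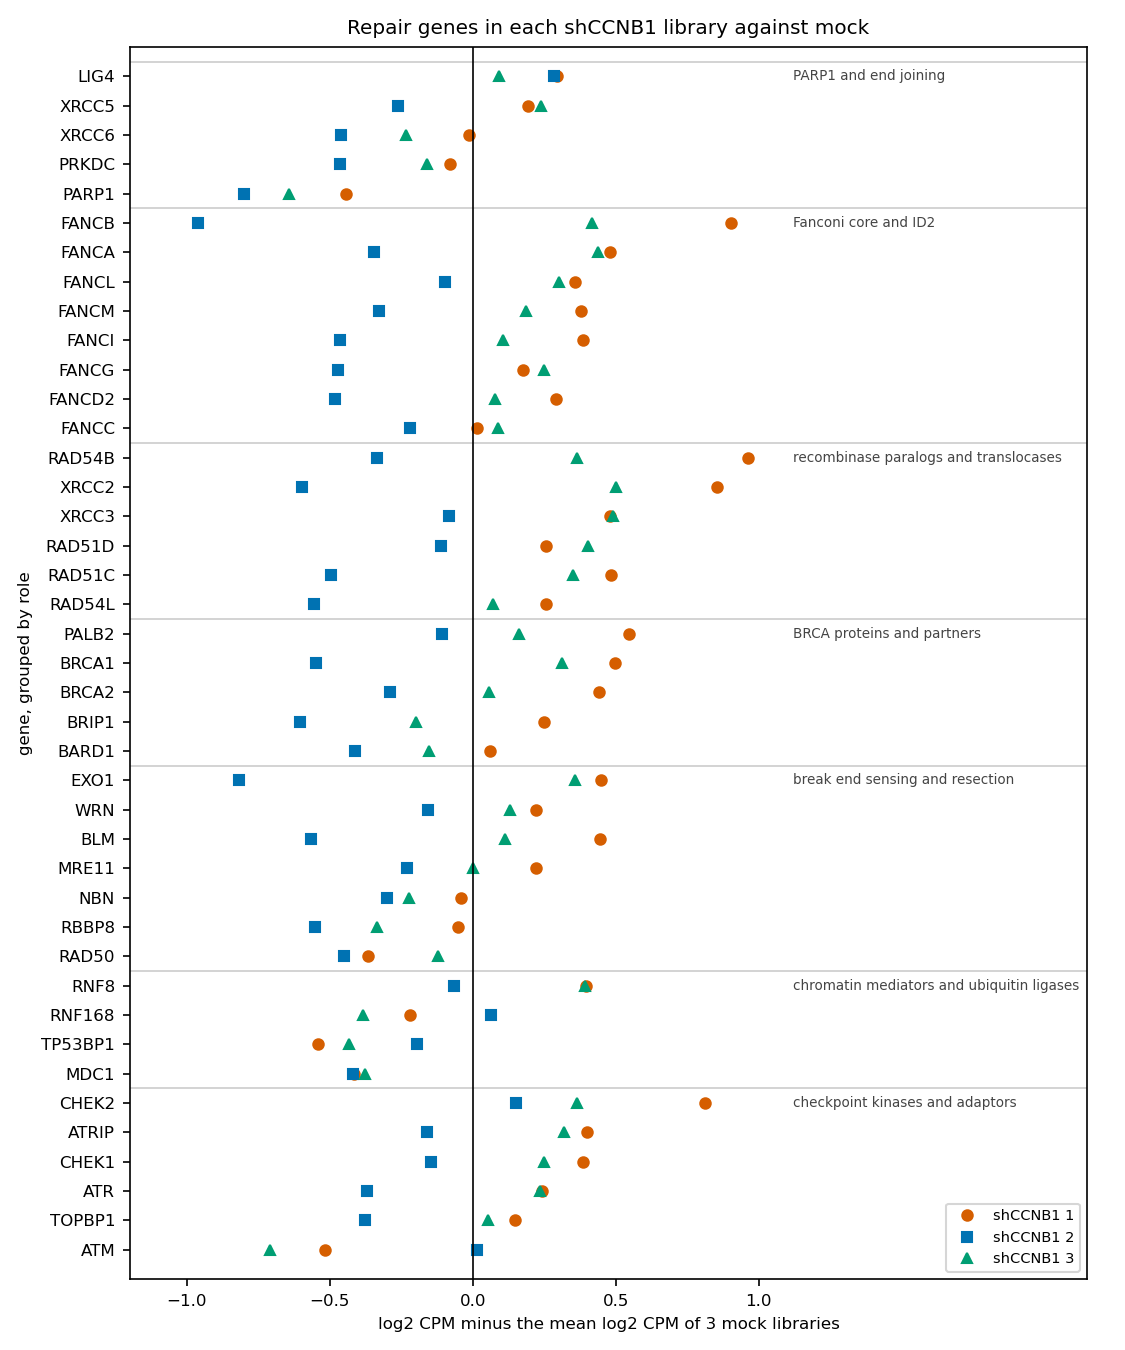
Each point is the log2 CPM of a repair gene in knockdown library 1, 2 or 3 minus the mean of the 3 mock libraries, with genes on the vertical axis grouped by role and ordered by log2 fold change. Library 2 lies to the left of libraries 1 and 3 for most genes, with exceptions at ATM, RNF168, TP53BP1 and LIG4.

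Without knockdown library 2, 12 of the 41 genes passed the threshold in edgeR's test of 2 knockdown against 3 mock libraries. This fit was picked because library 2 differed for these same genes, so the calls are a description. CHEK2, RNF8, BRCA1, RAD51C, XRCC2, XRCC3, FANCA and FANCB rose, 8 of 41 where 6.24% of all genes rose, and ATM, MDC1, TP53BP1 and PARP1 fell, 4 of 41 where 7.58% of all genes fell. With any other library left out, 0 of the 41 passed, and the highest adjusted p of these 12 genes over the fits with 1 library left out lay between 0.413 for PARP1 and 0.987 for XRCC2.

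**Figure D2:**
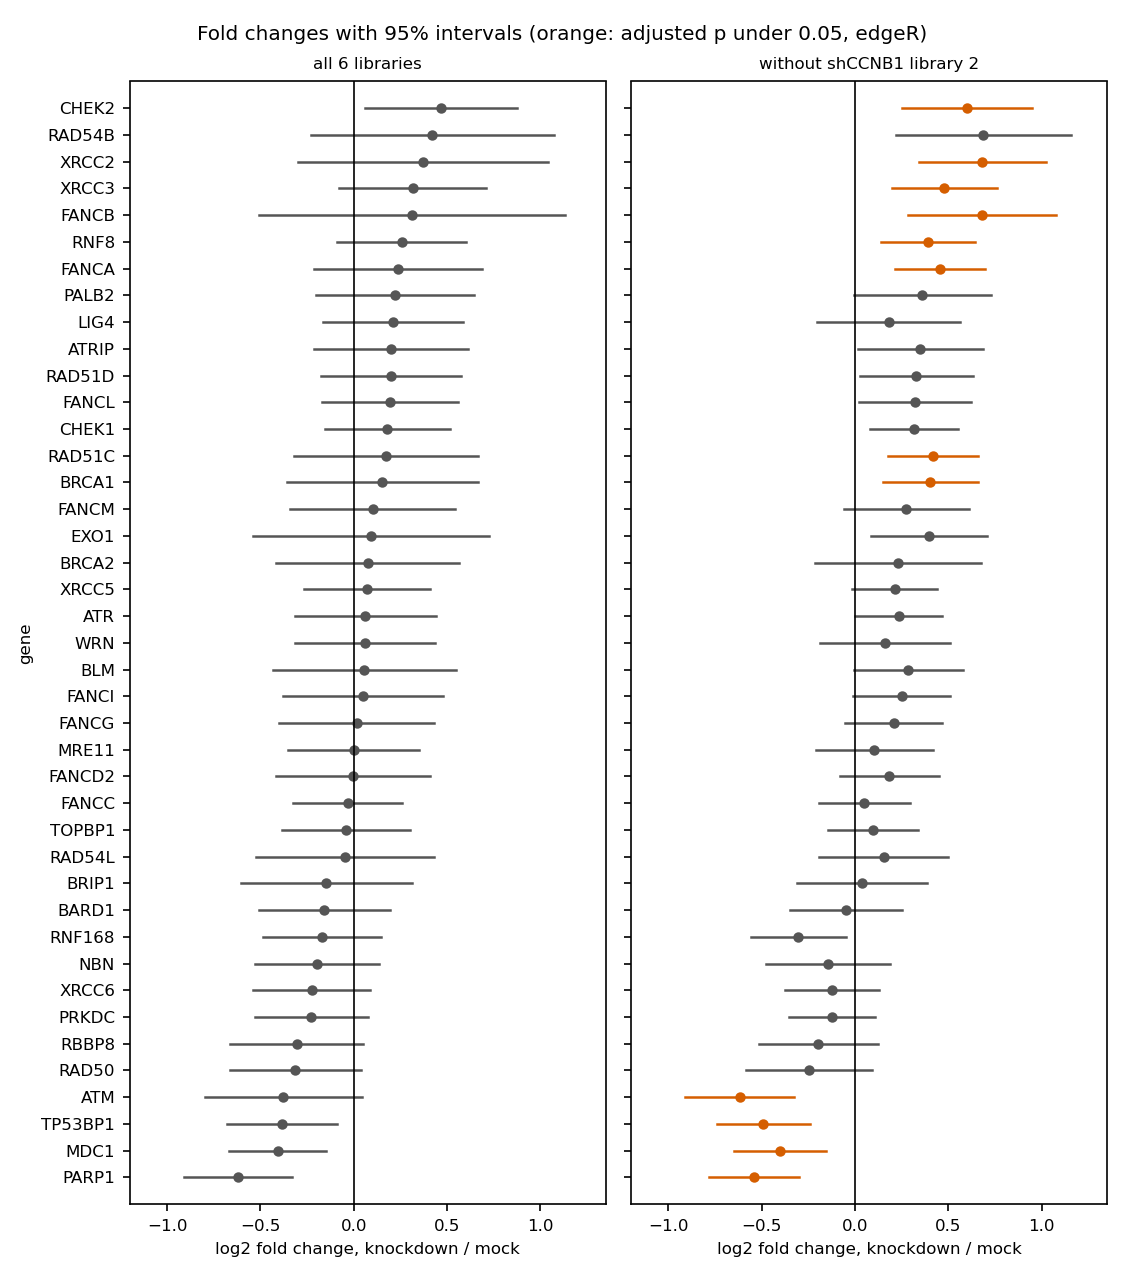
Points are log2 fold changes of knockdown over mock for the 41 genes and lines are their 95% intervals, with all 6 libraries on the left and without knockdown library 2 on the right. No gene is orange on the left, and on the right the 12 genes with an adjusted p under 0.05 in edgeR are, 8 to the right of 0 and 4 to the left.

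The clearest difference was in PARP1 (ENSG00000143799, chromosome 1 from 226360691 to 226408079, minus strand, GRCh38), whose enzyme binds strand breaks and builds poly(ADP-ribose) chains. Its levels were 118, 119 and 115 CPM in the mock libraries against 86.4, 67.5 and 75.2 CPM in the knockdown libraries. All 3 knockdown libraries lay below all 3 mock libraries, by more than the spread within either group. The log2 fold change was -0.62 (SE 0.13, 95% interval -0.91 to -0.33), 1.54-fold lower, and the adjusted p was 0.111 in edgeR and 0.00197 in DESeq2. Leaving out single libraries moved the fold change between -0.74 and -0.54 and the adjusted p in edgeR between 0.0123 and 0.413. PARP1 shares no exon base with another annotated gene.

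The other end joining genes moved less. XRCC5 and XRCC6, which encode the Ku subunits that encircle a broken end, were at 438 ± 21.8 CPM over the mock and 460.4 ± 83.2 CPM over the knockdown libraries (SD, n = 3) and at 381 ± 22.1 CPM over the mock and 326 ± 50.3 CPM over the knockdown libraries (SD, n = 3). PRKDC, the catalytic subunit of the DNA-dependent protein kinase that Ku recruits, was at 974 ± 51.5 CPM over the mock and 832 ± 113 CPM over the knockdown libraries (SD, n = 3). For XRCC5, XRCC6 and PRKDC the knockdown and mock libraries overlapped, and their log2 fold changes were 0.073, -0.23 and -0.23, with 95% intervals of -0.26 to 0.41, -0.54 to 0.088 and -0.53 to 0.075. LIG4, the ligase that seals the joined ends, was at 9.85, 14.1 and 13.1 CPM in the mock libraries against 15.01, 14.9 and 13.02 CPM in the knockdown libraries. Knockdown libraries 1 and 2 lay above all mock libraries and library 3 within them, and its log2 fold change was 0.21 (SE 0.17, adjusted p = 0.582 in edgeR).

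Among the chromatin mediators, MDC1 (ENSG00000137337, chromosome 6 from 30699807 to 30717889, minus strand), the scaffold that reads the phosphorylated histone H2AX, was at 94.7, 105 and 90.5 CPM in the mock libraries against 72.2, 72.1 and 74.3 CPM in the knockdown libraries. The knockdown libraries agreed closely and all lay below mock. The log2 fold change was -0.41 (SE 0.12), and the adjusted p was 0.162 in edgeR, 0.0472 in DESeq2 and 0.0403 in edgeR without knockdown library 2. TP53BP1 (ENSG00000067369, chromosome 15 from 43403061 to 43510728, minus strand), which shields ends from resection, was at 109, 108 and 96.4 CPM in the mock libraries against 71.7, 91.1 and 77.4 CPM in the knockdown libraries. Its groups did not overlap, and the log2 fold change was -0.39 (SE 0.13, adjusted p = 0.226 in edgeR), or -0.49 without knockdown library 2 (adjusted p = 0.0197). TP53BP1 shares 28.7% of its exon bases with TUBGCP4 on the opposite strand, and since the labels name no strand-specific kit or setting, its counts are uncertain.

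The ubiquitin ligases of the same chromatin pathway differed from each other. RNF8, the first ligase to be recruited by MDC1, was at 21.2, 22.7 and 22.5 CPM in the mock libraries against 29.1, 21.1 and 29.1 CPM in the knockdown libraries. Knockdown libraries 1 and 3 lay above all mock libraries and library 2 just below them, and the log2 fold change of 0.26 became 0.39 without library 2 (adjusted p = 0.0462 in edgeR). RNF168, which extends the ubiquitin signal that RNF8 starts, was at 52.4 ± 3.15 CPM over the mock and 46.5 ± 7.39 CPM over the knockdown libraries (SD, n = 3). Knockdown libraries 1 and 3 of RNF168 lay below mock and library 2 within it, and the adjusted p was 0.6001 in edgeR, and 0.106 without library 2.

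The checkpoint kinases parted as well. CHEK2, the effector kinase downstream of ATM, was at 17.7, 21.4 and 18.6 CPM in the mock libraries against 33.7, 21.3 and 24.7 CPM in the knockdown libraries. Library 1 was highest and library 2 lay within the mock range, so that the groups overlapped. The log2 fold change was 0.47 (SE 0.18, adjusted p = 0.273 in edgeR), and 0.60 (SE 0.16) without knockdown library 2, where it rose 1.52-fold with an adjusted p of 0.0334. ATM (ENSG00000149311, chromosome 11 from 108222484 to 108369102, plus strand), the apical kinase of the response to breaks, went the other way, at 94.4, 119 and 107 CPM in the mock libraries against 74.3, 107 and 65.04 CPM in the knockdown libraries. In libraries 1 and 3 ATM lay below all mock libraries, and library 2 equalled the mock mean to within 0.0142 on the log2 scale. Its log2 fold change was -0.38 with all libraries (adjusted p = 0.379 in edgeR) and -0.62 without knockdown library 2 (SE 0.13, adjusted p = 0.0148).

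**Figure D3:**
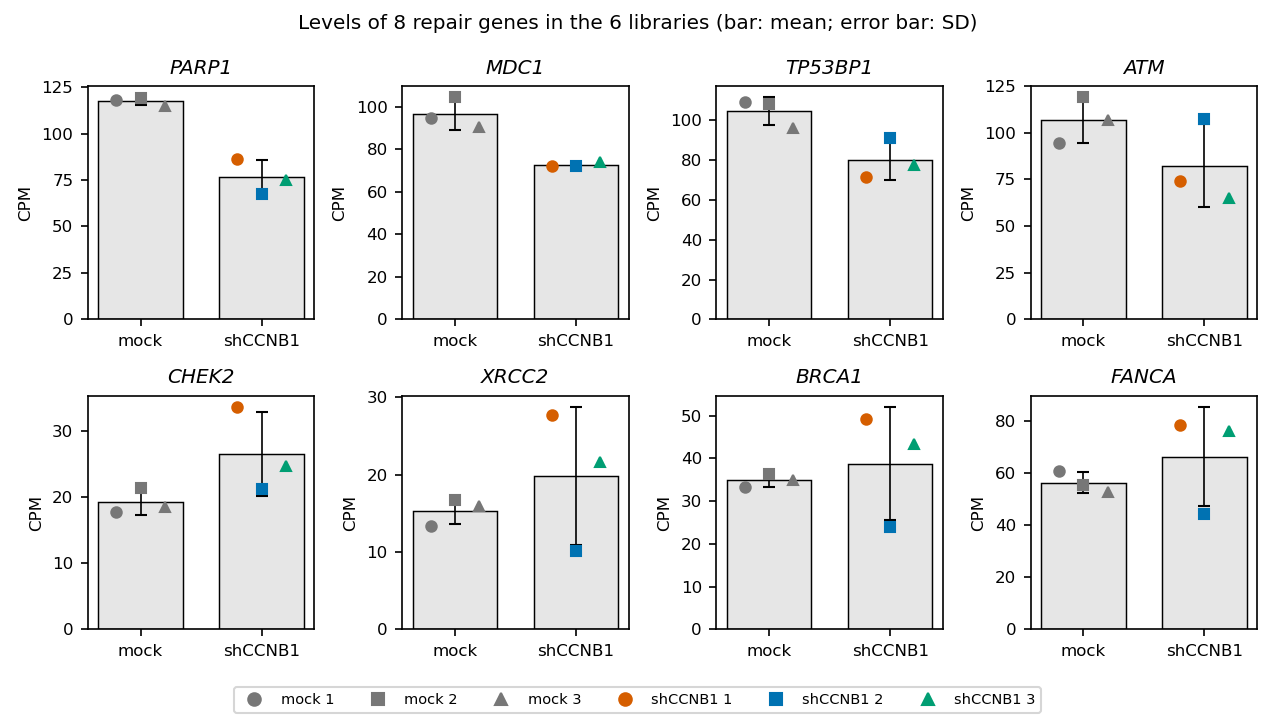
CPM of 8 repair genes in each library, with bars at the group mean and error bars at 1 SD (n = 3). PARP1, MDC1 and TP53BP1 show no overlap between the groups, and in CHEK2, XRCC2, BRCA1 and FANCA knockdown library 2 (square) lies within or below mock while libraries 1 and 3 lie above it.

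On the ATR side, ATR itself was at 60.2 ± 3.12 CPM over the mock and 62.8 ± 14.1 CPM over the knockdown libraries (SD, n = 3), and ATRIP, its partner in binding single-stranded DNA, at 14.01 ± 2.02 CPM over the mock and 16.1 ± 3.19 CPM over the knockdown libraries (SD, n = 3). CHEK1, the effector kinase that ATR activates and that holds back CDK1, was at 61.4 ± 2.28 CPM over the mock and 69.5 ± 12.7 CPM over the knockdown libraries (SD, n = 3). TOPBP1, the activator of ATR, was at 132 ± 9.13 CPM over the mock and 128 ± 23.6 CPM over the knockdown libraries (SD, n = 3). None of these 4 passed in edgeR, and their log2 fold changes of 0.061, 0.20, 0.18 and -0.043 had 95% intervals of -0.32 to 0.44, -0.22 to 0.61, -0.15 to 0.51 and -0.39 to 0.30. In all 4, knockdown library 2 was the lowest of the knockdown libraries. ATRIP shares 27.9% of its exon bases with TREX1 on the same strand, so its counts are uncertain.

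Among the proteins that sense and cut back broken ends, EXO1, a nuclease of long-range resection, varied most between knockdown libraries, at 20.4, 20.7 and 16.2 CPM in the mock libraries against 25.97, 10.7 and 24.4 CPM in the knockdown libraries. Libraries 1 and 3 lay above all mock libraries and library 2 below them. The log2 fold change was 0.093 (95% interval -0.54 to 0.73) with all libraries and 0.40 without knockdown library 2 (adjusted p = 0.0881 in edgeR). BLM, the helicase that works with EXO1 and is lost in Bloom syndrome, was at 23.6 ± 0.3201 CPM over the mock and 24.5 ± 8.14 CPM over the knockdown libraries (SD, n = 3), and the related helicase gene WRN at 21.7 ± 3.67 CPM over the mock and 22.6 ± 2.99 CPM over the knockdown libraries (SD, n = 3). BLM and WRN were lowest in library 2 among the knockdown libraries, and neither passed in edgeR.

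The MRE11 complex showed no difference that passed. MRE11, its nuclease, was at 47.8 ± 6.66 CPM over the mock and 47.8 ± 7.44 CPM over the knockdown libraries (SD, n = 3), NBN, its signalling subunit, at 72.03 ± 11.9 CPM over the mock and 62.8 ± 5.95 CPM over the knockdown libraries (SD, n = 3), and RBBP8, the cofactor CtIP that starts resection, at 54.2 ± 6.86 CPM over the mock and 43.8 ± 7.69 CPM over the knockdown libraries (SD, n = 3). The log2 fold changes of MRE11, NBN and RBBP8 were 0.000444, -0.20 and -0.31, with 95% intervals of -0.35 to 0.35, -0.53 to 0.14 and -0.66 to 0.052. RAD50, the subunit that bridges the ends, was counted at 12.3, 12.2 and 10.4 CPM in the mock libraries against 8.99, 8.48 and 10.7 CPM in the knockdown libraries, a log2 fold change of -0.31 (SE 0.16, adjusted p = 0.383 in edgeR). Its level is uncertain, since 79.7% of its exon bases are shared with the annotated gene AC116366.3 on the same strand, which held between 1 and 8 counts per library, and how reads over shared bases were assigned is not given in the sources used here.

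BRCA1 (ENSG00000012048, chromosome 17 from 43044295 to 43170245, minus strand), the ubiquitin ligase that favours recombination, was at 33.2, 36.5 and 35.1 CPM in the mock libraries against 49.2, 23.9 and 43.3 CPM in the knockdown libraries. Libraries 1 and 3 lay above every mock library and library 2 below every mock library. The log2 fold change was 0.15 (SE 0.23, 95% interval -0.36 to 0.66) and, without knockdown library 2, 0.40 (SE 0.11, adjusted p = 0.0447 in edgeR). BARD1, its obligate partner, was at 19.00, 22.8 and 21.8 CPM in the mock libraries against 22.03, 15.9 and 19.00 CPM in the knockdown libraries, with groups that overlapped and a log2 fold change of -0.16 (SE 0.16). PALB2, which links BRCA1 to BRCA2, was at 10.6, 12.99 and 10.6 CPM in the mock libraries against 16.6, 10.5 and 12.7 CPM in the knockdown libraries, a log2 fold change of 0.22 with all libraries and 0.36 without library 2 (adjusted p = 0.169 in edgeR). For BARD1 and PALB2 neither fit passed. BRCA2 was at 25.2 ± 5.77 CPM over the mock and 26.5 ± 6.71 CPM over the knockdown libraries (SD, n = 3) and BRIP1, the helicase bound by BRCA1, at 27.6 ± 2.76 CPM over the mock and 24.9 ± 7.37 CPM over the knockdown libraries (SD, n = 3), and the log2 fold changes of this pair, 0.074 and -0.15, had intervals of -0.42 to 0.56 and -0.60 to 0.31.

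The recombinase paralogs, grouped with the translocase genes RAD54B and RAD54L, had the highest median of the 7 role groups, 0.26, and, without knockdown library 2, 0.45. In this group XRCC3 and RAD54B share most of their exon bases with other genes, so the median rests in part on uncertain counts. XRCC2 (ENSG00000196584, chromosome 7 from 152644779 to 152676165, minus strand), a paralog that acts in strand exchange, was at 13.4, 16.7 and 15.99 CPM in the mock libraries against 27.7, 10.1 and 21.6 CPM in the knockdown libraries. It was highest in knockdown library 1 and lowest in knockdown library 2. Its log2 fold change was 0.37 (SE 0.30) with all libraries and 0.68 (SE 0.15) without library 2, a 1.604-fold rise with an adjusted p of 0.0188 in edgeR. RAD51C, present in both paralog complexes, was at 35.5, 33.9 and 34.3 CPM in the mock libraries against 48.3, 24.5 and 44.1 CPM in the knockdown libraries. The mock libraries of RAD51C differed by little, and knockdown libraries lay on both sides of them. Without library 2 its log2 fold change of 0.17 was 0.42 (adjusted p = 0.0325 in edgeR).

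XRCC3, the partner of RAD51C, was at 31.98, 26.1 and 26.8 CPM in the mock libraries against 39.3, 26.6 and 39.6 CPM in the knockdown libraries, with a log2 fold change of 0.31, and 0.48 without library 2 (adjusted p = 0.0337 in edgeR). It shares 76.7% of its exon bases with KLC1 on the opposite strand, so its counts are uncertain. RAD54B and RAD54L encode motor proteins of strand exchange. RAD54B was at 5.84, 5.33 and 7.199 CPM in the mock libraries against 11.9, 4.81 and 7.84 CPM in the knockdown libraries (log2 fold change 0.42, SE 0.29), and shares 59.1% of its exon bases with FSBP. RAD54L was at 19.5, 15.5 and 14.6 CPM in the mock libraries against 19.6, 11.1 and 17.2 CPM in the knockdown libraries, and its log2 fold change of -0.048 was 0.15 without library 2. RAD54L shares 25.1% of its exon bases with LRRC41 on the opposite strand, so its counts are uncertain. The groups overlapped for RAD54B and RAD54L, and neither gene passed in any fit run. RAD51D, a further paralog, was at 11.1 ± 0.797 CPM over the mock and 12.7 ± 2.25 CPM over the knockdown libraries (SD, n = 3), with a log2 fold change of 0.20.

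Of the 8 Fanconi genes, 7 lay above all mock libraries in knockdown library 1, where 36.0% of all genes did. In library 3, 6 lay above, where 35.2% of all genes did. In library 2, 0 lay above, where 32.4% of all genes did, and 7 below, where 27.3% did. FANCA (ENSG00000187741, chromosome 16 from 89737549 to 89816657, minus strand), a subunit of the core complex that ubiquitinates FANCD2 and FANCI, was at 60.5, 55.3 and 52.7 CPM in the mock libraries against 78.3, 44.2 and 76.01 CPM in the knockdown libraries. Without library 2 it rose 1.37-fold (log2 fold change 0.46, adjusted p = 0.0234 in edgeR), and with all libraries the log2 fold change was 0.24 (SE 0.20). FANCA shares 23.6% of its exon bases with ZNF276 on the opposite strand. FANCB, an X-linked core subunit, was at 6.58, 7.305 and 7.82 CPM in the mock libraries against 13.6, 3.67 and 9.65 CPM in the knockdown libraries. It had the widest interval of the 41, -0.51 to 1.13, around a log2 fold change of 0.31, and rose by 0.68 on that scale without library 2 (adjusted p = 0.03296 in edgeR). FANCC varied least of the 8 across the knockdown libraries, at 31.2, 32.3 and 33.1 CPM in the mock libraries against 32.5, 27.6 and 34.2 CPM in the knockdown libraries.

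FANCD2 and FANCI, which form the clamp that the core complex modifies at a crosslink, had the same order of libraries. FANCD2 was at 47.4, 50.6 and 44.2 CPM in the mock libraries against 57.9, 33.9 and 49.9 CPM in the knockdown libraries, and FANCI at 71.7, 72.6 and 68.4 CPM in the mock libraries against 92.6, 51.4 and 76.2 CPM in the knockdown libraries. In both, library 1 was highest, library 2 lowest, and the log2 fold changes were -0.00427 (95% interval -0.42 to 0.41) and 0.050 (-0.38 to 0.48). FANCG and FANCL, core subunits of which FANCL is the ligase, were at 58.1 ± 5.71 CPM over the mock and 58.7 ± 14.7 CPM over the knockdown libraries (SD, n = 3) and at 27.6 ± 3.602 CPM over the mock and 31.5 ± 5.17 CPM over the knockdown libraries (SD, n = 3). FANCM, the translocase that anchors the core complex, was at 14.9 ± 2.098 CPM over the mock and 16.01 ± 3.83 CPM over the knockdown libraries (SD, n = 3). The log2 fold changes of FANCG, FANCL and FANCM, 0.015, 0.19 and 0.10, did not pass in edgeR with or without knockdown library 2.

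Genes of S phase had the same order across the knockdown libraries as most repair genes. The median log2 level relative to mock of 25 G1/S and S phase genes, none of them among the 41, was 0.54, -0.68 and 0.41 in knockdown libraries 1, 2 and 3, and 0.15, -0.062 and -0.092 in mock libraries 1, 2 and 3. For 20 G2 and mitosis genes it was 0.10, -0.27 and -0.054 in knockdown libraries 1, 2 and 3, the same order over a narrower range. The Fanconi group followed the same order as the S phase list, with 0.37, -0.40 and 0.22 in knockdown libraries 1, 2 and 3. So did the recombinase paralogs and translocases, with 0.48, -0.41 and 0.38 in knockdown libraries 1, 2 and 3. The other role groups had this order too, except the chromatin mediators, with -0.32, -0.13 and -0.38 in knockdown libraries 1, 2 and 3. The part of the S phase genes in these results was not tested.

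**Figure D4:**
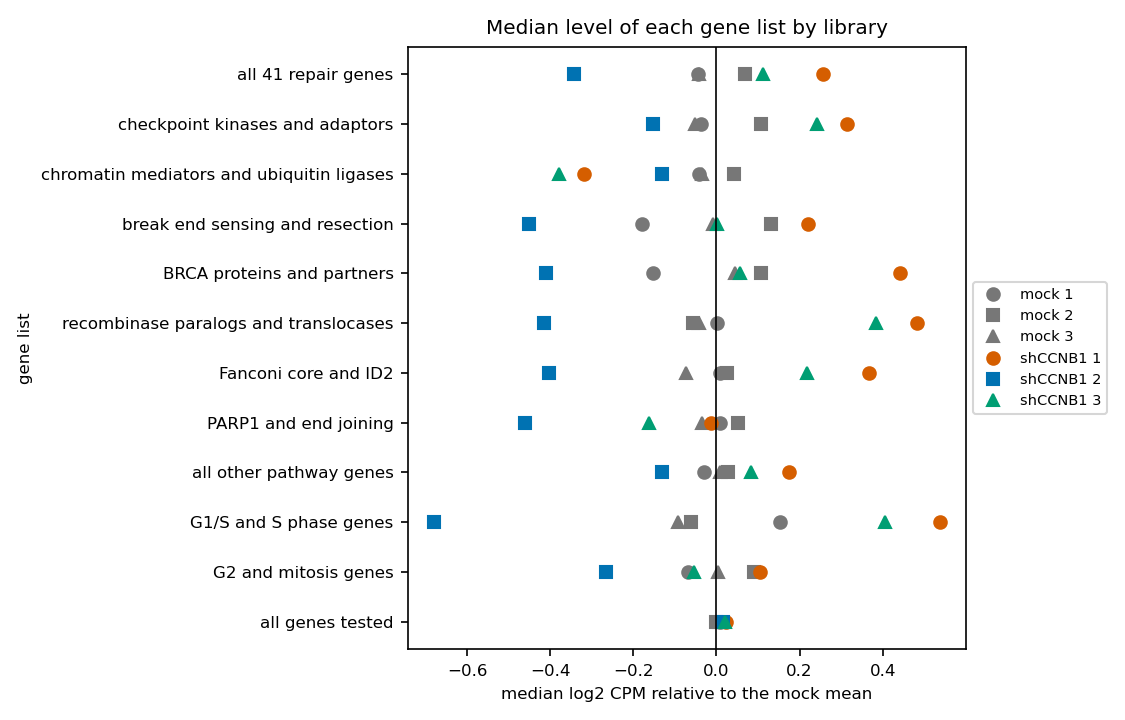
Each point is the median log2 CPM of a gene list in a library relative to the mock mean, for the 41 repair genes, their 7 role groups, 73 other pathway genes, S phase and mitosis lists and all genes tested. Knockdown library 2 lies lowest for the repair genes at -0.34 and for the S phase genes at -0.68, and for the chromatin mediators library 2 is the highest of the knockdown libraries.

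Because most of these genes shared an order across the knockdown libraries, their promoters were searched for the words that E2F factors, the activators of S phase genes, are known to bind. The RefSeq promoter table (GRCh38.p14, 300 bases around an annotated start, 1 start used per gene) held 35 of the 41 genes. Those not matched were NBN, WRN, RAD54B, PRKDC, FANCI and XRCC5. Other starts of a gene were not searched, so a gene counted without a word may hold one at another start. The words TTTCCCGC, TTTGGCGC, TTTCGCGC and TTTGCCGC were searched on both strands. At least 1 was present in 7 of 35 repair gene promoters (20%), those of TOPBP1, EXO1, XRCC2, FANCA, FANCC, FANCD2 and XRCC6. Of all 27305 promoters searched, 1 per gene and noncoding genes included, 908 held a word (3.33%). The word TTTGAA, the core of the element of late cell cycle genes called CHR, was in 4 of 35, those of ATM, MDC1, BRIP1 and FANCC, against 15.4% of all promoters searched. A match is a description of the letters and does not show binding.

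The promoters of XRCC2, EXO1 and FANCA are shown because these genes parted most between knockdown libraries among those with an E2F word, and that of PARP1 because it was low in every knockdown library. Capitals mark the E2F words, which can lie on either strand, and the PARP1 window holds none.
XRCC2 promoter, chr7:152676092-152676391, minus strand: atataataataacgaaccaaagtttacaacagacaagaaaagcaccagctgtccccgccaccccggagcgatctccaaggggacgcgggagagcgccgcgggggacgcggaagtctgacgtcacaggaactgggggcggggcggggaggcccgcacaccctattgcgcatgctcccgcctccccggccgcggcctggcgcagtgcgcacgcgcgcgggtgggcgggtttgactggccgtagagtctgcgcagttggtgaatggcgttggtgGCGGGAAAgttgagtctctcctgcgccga
EXO1 promoter, chr1:241847954-241848253, plus strand: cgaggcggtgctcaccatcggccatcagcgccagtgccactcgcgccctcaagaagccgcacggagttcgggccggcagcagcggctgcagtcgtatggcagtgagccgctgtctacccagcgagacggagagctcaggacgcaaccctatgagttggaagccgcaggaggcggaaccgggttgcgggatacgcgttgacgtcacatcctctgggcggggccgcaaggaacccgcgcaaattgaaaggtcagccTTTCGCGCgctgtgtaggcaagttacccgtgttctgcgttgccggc
FANCA promoter, chr16:89816598-89816897, minus strand: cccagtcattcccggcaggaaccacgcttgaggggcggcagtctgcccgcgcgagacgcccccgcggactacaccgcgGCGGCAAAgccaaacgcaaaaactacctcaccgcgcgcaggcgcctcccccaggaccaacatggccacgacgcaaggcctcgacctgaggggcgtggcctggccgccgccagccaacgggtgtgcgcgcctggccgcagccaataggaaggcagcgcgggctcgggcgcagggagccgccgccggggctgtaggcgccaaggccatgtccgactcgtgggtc
PARP1 promoter, chr1:226408044-226408343, minus strand: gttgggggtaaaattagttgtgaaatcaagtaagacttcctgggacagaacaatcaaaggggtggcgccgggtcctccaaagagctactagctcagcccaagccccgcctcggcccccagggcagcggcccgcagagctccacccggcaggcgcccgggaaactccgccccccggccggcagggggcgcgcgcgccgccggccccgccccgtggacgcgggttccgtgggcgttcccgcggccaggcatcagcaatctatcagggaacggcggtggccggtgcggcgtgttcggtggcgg

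In knockdown libraries 1, 2 and 3, the log2 levels relative to the mock mean were 0.85, -0.60 and 0.50 for XRCC2, whose word lies downstream of the start. For EXO1 they were 0.45, -0.82 and 0.36. FANCB, without a word in the window, had 0.90, -0.96 and 0.42. For FANCC, which holds 2 words, they were 0.016, -0.22 and 0.089, a smaller range. The other genes with a word had 0.48, -0.34 and 0.44 (FANCA) and 0.29, -0.48 and 0.077 (FANCD2). TOPBP1 had 0.15, -0.38 and 0.054, and XRCC6 had -0.014, -0.46 and -0.23. FANCB is an example, and genes with and without a word were not compared as sets. Any link between the words and the spread between libraries was not tested.

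A second sequence was examined in the transcripts. In an earlier reading of these same data, genes that were lower in the knockdown often carried the heptamer GTACTAT in the 3′ untranslated region (UTR), so its presence is a description here. It was found in the longest 3′ UTR of 5 of 41 repair genes, against 6.76% of the 13173 tested genes that were searched, whose UTR had to reach 50 bases. The sites are shown with up to 10 bases on either side, in the direction of the transcript, from GENCODE release 29, with the heptamer in capitals.
ATM 3′ UTR site: atagattttaGTACTATtgaatgtatt
RNF8 3′ UTR site: aagcctgaatGTACTATgtttaaaaga
BRIP1 3′ UTR site: gcagcggttaGTACTATaaaatcatac
RAD51D 3′ UTR site: gccactcaagGTACTATttgggcatct
XRCC6 3′ UTR site: ccctaagtttGTACTATatactgtt

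The 5 carriers did not share a direction. ATM, BRIP1 and XRCC6 had log2 fold changes of -0.38, -0.15 and -0.23, while RNF8 and RAD51D had 0.26 and 0.20. Their median was -0.15, beside 0.061 for the 36 repair genes without the heptamer, and without knockdown library 2 these medians were 0.037 and 0.22. Over all genes searched, 649 of 890 carriers were lower, with a median of -0.18, beside 5997 of 12283 genes without it, with a median of 0.0078. PARP1, MDC1 and TP53BP1, the 3 repair genes that were below mock in every knockdown library, did not carry it. Only 6.76% of all genes searched did, so its absence from these 3 is uninformative.

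The levels of the repair genes per gene length spanned about 2 orders of magnitude in mock cells. The DNA-dependent protein kinase stood highest, with XRCC6 at 114 ± 9.29 FPKM, XRCC5 at 78.8 ± 4.81 FPKM and PRKDC at 62.1 ± 3.86 FPKM (SD, n = 3). TOPBP1, PARP1 and FANCG followed at 17.8 ± 1.64, 16.1 ± 0.5700 and 15.8 ± 1.31 FPKM, an order in which neighbours do not differ beyond their spread. The apical kinases were lower and close to each other, ATR at 4.74 ± 0.322 and ATM at 4.39 ± 0.608 FPKM, and the effector CHEK1, at 9.198 ± 0.538 FPKM, lay above CHEK2, at 4.57 ± 0.565 FPKM. BRCA1 and BARD1 were at 3.74 ± 0.2602 and 3.43 ± 0.3896 FPKM and BRCA2 at 2.02 ± 0.502 FPKM. The lowest values were those of RAD51D at 0.962 ± 0.0902, RAD54B at 1.13 ± 0.1701 and RAD50 at 1.17 ± 0.113 FPKM, of which RAD54B and RAD50 share most of their exon bases with another gene. The counted length includes every annotated exon, so FPKM understates genes with long rarely used exons.

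**Figure D5:**
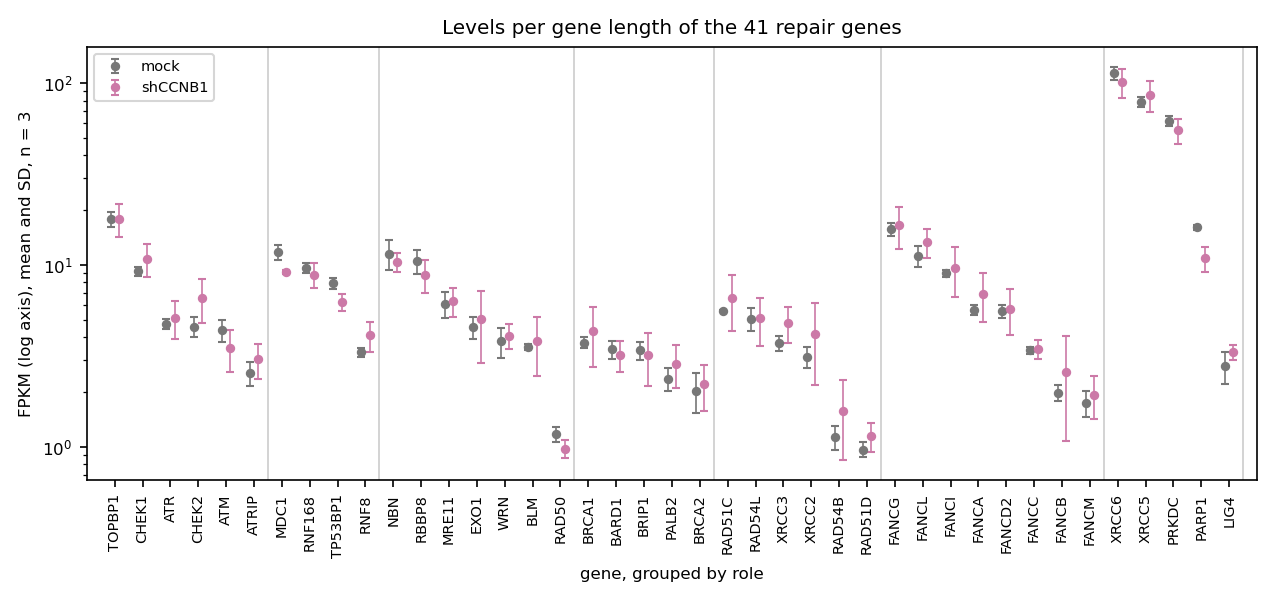
Mean and SD of FPKM over 3 mock and 3 knockdown libraries for the 41 repair genes on a log axis, grouped by role and ordered by the mock level within each group. XRCC6, XRCC5 and PRKDC stand highest, and the SD of the knockdown group is wider than that of mock for all BRCA, recombinase paralog and translocase, and Fanconi genes.

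Beyond the 41, 75 other genes of the same pathways were examined, all matched by symbol or gene ID and 73 of them tested. None passed in edgeR with all 6 libraries. At an unadjusted p under 0.05 lay 1 on the higher side, where 8.14% of all genes lay, and 6 on the lower, where 6.88% lay. DESeq2 called 1 lower, where 2.39% of all genes were called, and the list had a median log2 fold change of 0.043. WEE1, the kinase that phosphorylates and restrains CDK1, was at 22.03, 24.6 and 22.5 CPM in the mock libraries against 34.7, 30.5 and 32.5 CPM in the knockdown libraries. All its knockdown libraries, library 2 included, lay above all mock libraries, and the log2 fold change was 0.50 (SE 0.13, adjusted p = 0.133 in edgeR and 0.0572 in DESeq2). MUS81, a nuclease that cuts recombination intermediates and stalled forks, was at 27.9, 21.6 and 29.5 CPM in the mock libraries against 15.7, 18.8 and 17.4 CPM in the knockdown libraries. It lay below mock in every knockdown library, with a log2 fold change of -0.61 (SE 0.16, adjusted p = 0.139 in edgeR and 0.0193 in DESeq2), and was the gene that DESeq2 called. MUS81 shares 13.9% of its exon bases with CFL1 on the opposite strand, which held 13658 to 18308 counts per library, so the counts of MUS81 are uncertain.

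SHLD2 and RIF1 protect ends from resection, as TP53BP1 does, and were on the lower side like it. SHLD2, a shieldin subunit, was at 45.5, 56.1 and 53.5 CPM in the mock libraries against 42.4, 38.4 and 38.4 CPM in the knockdown libraries, a log2 fold change of -0.38 (adjusted p = 0.222 in edgeR). RIF1, which TP53BP1 recruits, was at 155, 196 and 189.9 CPM in the mock libraries against 157, 135 and 125 CPM in the knockdown libraries, a log2 fold change of -0.37 (adjusted p = 0.266 in edgeR). SHLD2 did not overlap between groups, and RIF1 did, in knockdown library 1. The other shieldin subunits SHLD1, SHLD3 and MAD2L2 had log2 fold changes of 0.47, -0.25 and 0.18, none past the threshold, so the shieldin genes did not share a direction.

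The break repair ligase LIG3 was at 34.2, 32.5 and 30.2 CPM in the mock libraries against 26.5, 26.04 and 25.3 CPM in the knockdown libraries, a log2 fold change of -0.32 (adjusted p = 0.267 in edgeR). The end joining factor APLF was at 4.64, 4.799 and 4.78 CPM in the mock libraries against 3.57, 3.29 and 3.83 CPM in the knockdown libraries, a log2 fold change of -0.41 (adjusted p = 0.309 in edgeR). Both had knockdown libraries below all mock libraries, and LIG3 and APLF share 30.5% and 22.8% of their exon bases with other genes. H2AFX, the gene of the histone variant that marks breaks, was at 93.5, 41.7 and 94.6 CPM in the mock libraries against 36.4, 25.8 and 64.6 CPM in the knockdown libraries. Its groups overlapped, with mock library 2 far below the other mock libraries, and its log2 fold change was -0.86 (SE 0.36, adjusted p = 0.311 in edgeR).

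Without knockdown library 2, 8 of these 73 pathway genes rose in edgeR's test, where 6.24% of all genes rose, and 1, MUS81, fell, where 7.58% fell. The 8 were WEE1, the 3 subunits of the single-strand binding protein RPA, the fork protection gene TIPIN, TOP3A, FIGNL1 and CENPX. RPA2 was at 59.3, 60.6 and 60.5 CPM in the mock libraries against 100.2, 46.4 and 89.6 CPM in the knockdown libraries, and rose 1.58-fold without library 2 (log2 fold change 0.66, adjusted p = 0.00435). CENPX, which binds DNA with FANCM, was at 34.97, 32.2 and 33.5 CPM in the mock libraries against 66.6, 23.5 and 56.4 CPM in the knockdown libraries, a log2 fold change of 0.87 without library 2 (adjusted p = 0.00179). Of the 8, all but WEE1 and TOP3A had knockdown library 2 below all mock libraries.

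NHEJ1, the end joining factor XLF, could not be assessed. It reached at most 0.208 CPM, below the filter, and 65.4% of its exon bases in GENCODE release 29 are shared with AC068946.1.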

How the data were processed

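RNA sequencing was analysed for 6 libraries of H1299 cells, 3 mock and 3 with an shRNA against CCNB1, grouped and numbered by their titles. Raw counts for each gene and FPKM were deposited by the authors, per the file headers, and 0 columns of other samples were present. The submitters' processing notes name GRCh38.p13, HISAT2 2.1.0, DESeq2, featureCounts 2.0.3 and bcl2fastq 2.20; strand setting, annotation release and handling of shared reads are not given in the sources used here. FPKM deposited by the authors implied, with the counts, a gene length equal to the summed exon length of GENCODE release 29 (GRCh38) for 38 of the 41 genes (not CHEK2, BLM or FANCC), and positions come from that release.

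The test on the counts used edgeR 4.0.16 under R 4.3.3 (filterByExpr, 17349 of 58336 genes kept; TMM scaling; quasi-likelihood F test; Benjamini-Hochberg adjustment over all genes tested; threshold 0.05). The common biological coefficient of variation was 17.6%. Standard errors were taken as the log2 fold change over the root of its F, intervals are at 95%, and log2 CPM used a prior count of 2. DESeq2 1.42.0, RLE scaling, no filter, a replicate block and leaving out each library were alternatives. Intervals cover these libraries only. No pair of libraries of a group agreed within sampling noise (chi-square per degree of freedom at least 12.8). Knockdown library 2 had 73.8 with library 1 and 67.2 with library 3, against 24.4 between knockdown libraries 1 and 3. On simulated counts for this comparison over 17051 genes, edgeR called 62% of 100 genes given a log2 change of 1 and 92% of those given 2, with 10 false calls. DESeq2 called 67% and 91%, with 26 false calls over 17349 genes. The simulation held no library that stood apart, as knockdown library 2 did. Changes as small as those of the repair genes were not simulated, so these shares do not describe the power for the repair genes. Tables and plots were made with matplotlib 3.10.9 and pandas 2.3.3 in Python 3.11.15.

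The 41 genes and the lists of other pathway, S phase, mitosis and marker genes were chosen with earlier results of these data known. Every one of the 41 could be named. Values per library are given for those at an unadjusted p under 0.05, called in DESeq2 or with a library left out, or highest or lowest in their role group, and for pathway genes at an unadjusted p under 0.05, up to 8. FANCD2, FANCI, RPA2, CENPX, SHLD1, SHLD3, MAD2L2 and NHEJ1 were described after their values were seen.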

Additional observations from a re-analysis of the deposited data

How the results depend on the processing

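Of 200 alternative values for the 20 repair genes described library by library, 176 kept their direction and side of the threshold, 15 kept their direction and passed, and 9 changed sign. Over all genes, 4 passed in edgeR, 568 in DESeq2, 1077 without a filter on low counts and 162 with the replicate block. With a library left out, between 1 and 2453 passed, 2453 being without knockdown library 2. Of the 41 repair genes 0 passed, against 2 in DESeq2, 1 without a filter (PARP1), 0 with the block and 0 to 12 with a library left out, 12 being without knockdown library 2. At an unadjusted p under 0.05 there were 4, and 3 to 20 with a library left out. Of the other pathway genes 0 passed, against 1 in DESeq2, 2 without a filter, 1 with the replicate block and 0 to 9 with a library left out. The median over the 41 lay between -0.14, without knockdown library 1, and 0.21, without knockdown library 2. The fall of CCNB1 stayed past the threshold in every alternative run, with log2 fold changes of -4.09 to -3.63 with a library left out. The signs that changed were those of EXO1 (-0.14 to 0.40 with a library left out, -0.00664 without mock library 3 and -0.060 without knockdown library 3), BRCA1 (-0.078 to 0.40), RAD51C (-0.032 to 0.42), FANCB (-0.14 to 0.68), RAD54L (-0.24 to 0.15, with 0.085 without mock library 1) and FANCC (-0.10 to 0.050). The lowest values of EXO1, BRCA1, RAD51C and FANCB were those without knockdown library 1, and the highest of RAD54L and FANCC those without knockdown library 2. The cause was not tested. Replicate numbers did not pair the libraries, with correlations of -0.19, 0.11 and 0.067 between the deviations of same-numbered libraries, and not every library correlated best with its own number.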

Other observations

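Ratios of FPKM between partner genes do not depend on library scaling, and 7 such pairs were computed after the values had been seen. The ratio of XRCC5 to XRCC6, whose proteins form the Ku heterodimer, was 0.738, 0.671 and 0.669 in mock libraries 1, 2 and 3 and 0.799, 0.794 and 0.9596 in knockdown libraries 1, 2 and 3. It was higher in 3 of 3 knockdown libraries, although neither gene passed alone. By exact permutation of the libraries (two-sided, on log2 ratios) p was 0.1, as low as this number of libraries permits, or 0.35 after Benjamini-Hochberg adjustment over the pairs. The ratio of CHEK2 to CHEK1 also did not overlap, at 0.495 ± 0.0334 in mock and 0.604 ± 0.0649 in knockdown libraries (SD, n = 3), with the same exact p and adjusted p.

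FANCD2 to FANCI was steady, at 0.619 ± 0.0237 in mock and 0.599 ± 0.0166 in knockdown libraries (SD, n = 3), while each gene alone ranged widely between knockdown libraries. The ratio of TP53BP1 to BRCA1 was 2.12 ± 0.192 in mock libraries (SD, n = 3) and 1.03, 2.702 and 1.26 in knockdown libraries 1, 2 and 3, on both sides of mock. ATM to ATR had the same arrangement, with 0.544, 1.203 and 0.479 in knockdown libraries against 0.925 ± 0.0988 in mock (SD, n = 3). BRCA1 to BARD1 and MRE11 to NBN overlapped between groups, and none of the 5 pairs after the first 2 fell below an exact p of 0.2.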
